A study of Mus musculus with 14 samples.

Results

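Pseudogenes are copies of genes that no longer make the protein of the gene they came from. Here they were the rows whose biotype in the deposited variant tables contained the word pseudogene, without the immunoglobulin and T-cell receptor segments. They came to 12041 of the 52292 genes listed in at least 1 of 12 mouse mammary tumours. Of these, 9438 were processed, 1830 unprocessed and 544 transcribed (285 transcribed processed, 230 transcribed unprocessed and 29 transcribed unitary). The other 229 were mostly polymorphic or unitary, or had no closer class. Of the 7876 pseudogenes whose symbols matched a RefSeq gene table of GRCm38.p6, 95.4% were pseudogenes there too. That share was 98.3% for processed, 88.3% for unprocessed and 77.8% for transcribed pseudogenes, and 242 of the matched symbols were protein-coding genes in RefSeq.

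A processed pseudogene arises when a messenger RNA is copied back into DNA and inserted elsewhere, so that it usually lacks introns and lies far from its source. An unprocessed pseudogene arises when a stretch of DNA is duplicated and one copy decays, so that it often keeps introns and lies beside its relatives. A transcribed pseudogene is either kind with evidence of RNA, and a unitary pseudogene is a gene that decayed without a working copy. Short sequencing reads from copies that share sequence can be placed on the wrong copy, and exome baits made for a gene can also capture its copies.

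All 12 tumours grew from mammary fragments of Balb/c p53null mice and were sequenced as whole exomes. In the gel experiment, fragments of syngeneic donors aged 8 to 10 weeks were put into cleared fat pads of wild-type females aged 3 to 4 weeks. The pads held collagen 1 with 20% basement membrane extract, either soft (no ribose, tumours A1, A2 and A3) or stiff (collagen crosslinked with 500 mM L-ribose for 10 to 14 days, tumours A7, A8 and A9). In the host experiment, fragments went into LysM-Cre mice that were GPX4 wild-type (WT, tumours B1, B2 and B3) or knockout (KO, tumours B4, B5 and B6). LysM-Cre is active in myeloid cells, so the knockout was in cells of the host and not in the implanted fragment. The strain of the LysM-Cre mice is not given in the sources used here. Tumours were taken at a diameter of at most 2 cm. The question behind both experiments was whether DNA damage follows tension in the tissue and oxidative stress.

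The unit throughout is a count of variants per gene and tumour, written by snpEff. An exon variant lies in an exon of the pseudogene's transcript, and a flanking variant lies upstream or downstream of it by snpEff's own rule. The tables carry no positions, read depths or allele fractions, and whether tails served as matched normals is not given in the sources used here. A count can therefore hold inherited differences from the reference, misplaced reads of another copy, and somatic changes, and these cannot be told apart. Per tumour, 14335 to 27114 coding variants were counted in protein-coding genes, against 2608 to 5996 exon variants in pseudogenes. Tumours A9 (stiff) and B5 (KO) stood apart: they had 171 and 182 pseudogene exon variants per 1000 coding variants, and the other 10 tumours had between 200.3 and 231. The exon sums of all pseudogenes and the ratio of processed against unprocessed pseudogenes are therefore also given without them. So are the edgeR counts past an unadjusted p for stiff against soft, KO against WT and gel against host tumours.

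How alike copies can be is shown by the stretches around the starts of 4 unprocessed pseudogenes, which make up 2 pairs and lie on mouse chromosome 7. They are shown because the mean exon counts of Gm4454 and Gm21129 are among the highest of the pseudogenes with a start window in RefSeq, and because those counts were 0 in both A9 and B5. They were chosen after their values were seen. Each window runs from 250 bases before to 50 bases after the annotated start, 5′ to 3′ on the minus strand, from RefSeq on GRCm38.p6, an older build than the GRCm39 of the variant tables. Gm4454 lies at chr7:38572691-38572990, Gm9271 at chr7:39368118-39368417, Gm21129 at chr7:38826217-38826516 and Gm6818 at chr7:38408097-38408396. Capitals mark the bases at which the members of a pair differ. There were 0 such bases of 300 between Gm4454 and Gm9271, and 1 between Gm21129 and Gm6818.

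Gm4454: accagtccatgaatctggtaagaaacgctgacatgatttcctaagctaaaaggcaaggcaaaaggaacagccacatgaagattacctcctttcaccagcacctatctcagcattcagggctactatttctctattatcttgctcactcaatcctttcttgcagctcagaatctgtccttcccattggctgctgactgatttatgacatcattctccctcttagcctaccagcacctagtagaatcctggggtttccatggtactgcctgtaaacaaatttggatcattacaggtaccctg
Gm9271: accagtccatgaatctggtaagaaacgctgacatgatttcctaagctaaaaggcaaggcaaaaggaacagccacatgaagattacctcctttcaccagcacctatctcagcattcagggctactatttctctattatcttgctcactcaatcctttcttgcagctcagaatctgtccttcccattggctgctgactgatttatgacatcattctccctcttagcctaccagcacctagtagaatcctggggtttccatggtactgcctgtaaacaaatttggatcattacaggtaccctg
Gm21129: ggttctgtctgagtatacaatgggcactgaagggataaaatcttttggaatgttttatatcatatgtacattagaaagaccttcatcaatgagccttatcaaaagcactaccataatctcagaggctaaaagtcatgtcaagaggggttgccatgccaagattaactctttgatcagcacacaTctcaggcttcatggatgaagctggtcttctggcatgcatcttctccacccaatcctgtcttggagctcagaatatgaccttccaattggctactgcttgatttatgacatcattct
Gm6818: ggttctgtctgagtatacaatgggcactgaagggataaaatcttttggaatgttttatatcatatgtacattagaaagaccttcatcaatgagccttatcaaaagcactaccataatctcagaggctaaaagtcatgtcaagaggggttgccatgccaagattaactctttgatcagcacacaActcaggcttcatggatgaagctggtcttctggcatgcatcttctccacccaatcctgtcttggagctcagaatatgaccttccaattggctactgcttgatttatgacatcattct

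Most pseudogenes carried no exon variant at all. None was counted in any tumour in 7254 of the 12041 (60.2%), while 4787 (39.8%) had at least 1 in at least 1 tumour. The share with an exon variant was 39.0% of processed, 38.4% of unprocessed and 50.4% of transcribed pseudogenes. For comparison, 60.6% of 4557 long non-coding RNA (lncRNA) genes had an exon variant and 65.9% of 21259 protein-coding genes had a coding variant. The calls were spread unevenly over tumours: 2019 of the 4787 pseudogenes had an exon variant in only 1 tumour, 2408 in 2 to 11, and 360 in all 12. The lowest counts of each pseudogene among the 12 tumours summed to 1213 variants, so at most 30.3% of the 48091 exon calls could be the same variants seen in every tumour. They were also concentrated in few members. The 100 densest pseudogenes held 31.7% of all exon calls, and 152 pseudogenes averaged at least 5 exon variants per tumour.

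Among processed pseudogenes the densest were Gm12919, Esd-ps, Gm1995, Gm6474 and Gm15593. Gm12919 (ENSMUSG00000083220) had 35, 38 and 37 exon variants in soft, 37, 37 and 16 in stiff, 37, 37 and 33 in WT-host and 37, 20 and 37 in KO-host tumours. Its counts were nearly level apart from A9 and B5. Gm15593 had 22 or 23 exon variants in every tumour. Esd-ps, named after the esterase D gene, ranged from 7 in B5 to 45 in A3, and its flanking variants ranged from 5 to 89. Gm1995 had 13 to 36 exon variants, but its flanks held 0 variants in 9 tumours, 1 in A3, 8 in B3 and 3 in B5. A processed pseudogene, Gm16425, had the widest range of its class, with 40 exon variants in B2, 14 in A3 and at most 6 in the other 10 tumours.

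The densest unprocessed pseudogenes were Gm15368, Gm5034, Cyp21a2-ps, Tas2r146-ps1 and Gm1982. Gm15368 lies among the Ugt1a genes, which encode enzymes that conjugate glucuronic acid to small molecules, and had 22 to 34 exon variants. Tas2r146-ps1, a copy of a bitter taste receptor, had 22 exon variants in 10 tumours and 23 in A1 and A2. Cyp21a2-ps, a decayed copy of the steroid 21-hydroxylase gene, was far more variable: it had 13, 29 and 35 in soft, 28, 20 and 11 in stiff, 29, 27 and 18 in WT-host and 26, 4 and 34 in KO-host tumours. Its lowest values were again those of B5 and A9. Gm1982 had the widest range of unprocessed pseudogenes, from 0 in A7 to 33 in B1.

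Among transcribed pseudogenes, 4932431P20Rik led with 17 to 34 exon variants and 4930432E11Rik followed with the widest range, from 2 in A2 and A7 to 47 in B6. Both are transcribed unitary pseudogenes. Gm48691 had 18, 18 and 19 exon variants in soft, 27, 11 and 5 in stiff, 19, 16 and 20 in WT-host and 19, 2 and 9 in KO-host tumours, with at most 3 flanking variants in any of them. Btnl5-ps, a copy of a butyrophilin-like gene of the immune receptor families, had 5 to 17, with the lowest count in both A9 and B5. Gm48165 had 1 to 16, with 1 in B5 and 3 in A8 and A9.

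Exon counts were next set against flanking counts, which come from the same tumour and the same pseudogenes. Processed pseudogenes had 8.20 ± 0.366 exon variants per 100 flanking variants (SD, n = 12) and unprocessed pseudogenes 7.26 ± 0.404. The ratio was higher for processed pseudogenes in 12 of 12 tumours, by 0.945 ± 0.674 on average (exact sign-flip permutation test, two-sided p = 0.000488, the smallest it can give; adjusted over 3 comparisons, 0.000488). Without A9 and B5 the mean difference was 0.811 (same exact test, p = 0.00195). Transcribed pseudogenes were higher again, with 10.3 ± 0.928, above processed pseudogenes in 12 of 12 tumours (same exact test, p = 0.000488). That comparison was added after the values were seen, and its class sums lean on dense members. 4932431P20Rik averaged 24.4 exon and 24.8 flanking variants per tumour and 4930432E11Rik 16.6 and 19.4, where the whole class averaged 268.5 and 2624. Whether the order holds without them was not tested. All pseudogenes together had 8.27 ± 0.235 and lncRNA genes 14.6 ± 0.309, so pseudogenes were lower in 12 of 12 tumours, with a mean difference of -6.34 ± 0.388 (same exact test, p = 0.000488). The tumours are the replicates, not the genes, and all 12 share the strain of the fragments and the reference. The same inherited variants can be counted again in each tumour, so these p-values cover only the spread between tumours. The ratio takes no account of the length of a transcript's exons, which was not used here. It is also a sum over genes, which hides a subset with more variants in the exon than in its flanks: 230 of 3680 processed pseudogenes with an exon variant, 50 of 702 unprocessed and 20 of 274 transcribed ones, against 134 of 2762 lncRNA genes. Those 314 pseudogenes, counting the other classes too, were 6.56% of the pseudogenes with an exon variant and held 19.7% of their exon calls.

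**Figure D1:**
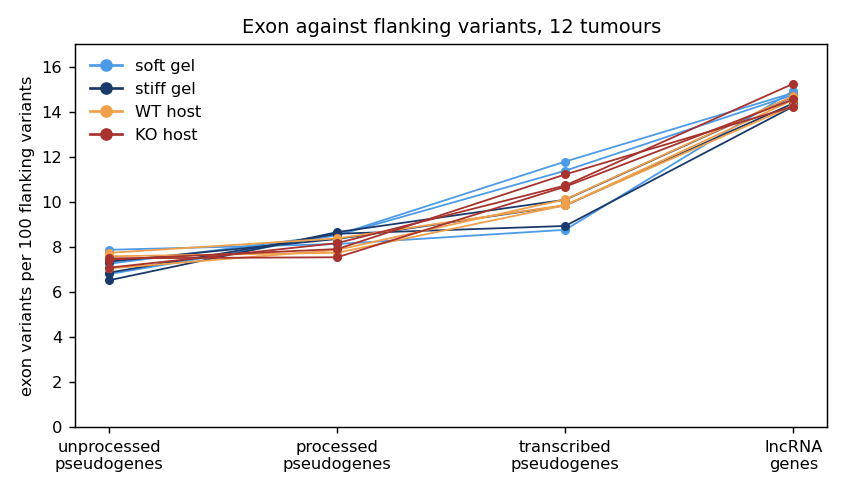
Exon variants per 100 flanking variants (y axis) for unprocessed, processed and transcribed pseudogenes and for lncRNA genes, with 1 line per tumour coloured by group. In all 12 tumours the order is unprocessed, processed, transcribed, lncRNA genes, with means of 7.26, 8.20, 10.3 and 14.6.

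Pseudogenes had fewer exon variants in the stiff-gel tumours than in the soft-gel tumours, but 3 tumours a group cannot take this past a threshold of 0.05. They numbered 3557, 3968 and 3810 in soft and 3502, 3230 and 2632 in stiff tumours, or 3778 ± 207 against 3121 ± 445 (SD, n = 3 each). The groups did not overlap, the stiff mean was lower by 17.4% of the soft mean, and the exact permutation p was 0.1, the smallest that 20 assignments allow (0.171 after adjustment over 12 tests). Without A9 the difference, -657 exon variants over all 6, was -412 (exact permutation p = 0.2). Groups did not overlap either for processed (2691 ± 145 against 2245 ± 277), unprocessed (691 ± 79.4 against 546 ± 138) and transcribed pseudogenes (258 ± 26.2 against 192 ± 28.0), each at exact permutation p = 0.1. Per 100 flanking variants the sign turned, with 8.41 in soft and 8.43 in stiff tumours (exact permutation p = 1.0). In transcribed pseudogenes that ratio was 10.6 in soft and 9.62 in stiff tumours (exact permutation p = 0.4).

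In KO and WT hosts the tumours overlapped. Exon variants of pseudogenes numbered 5996, 5332 and 4379 in WT and 3771, 2608 and 5306 in KO hosts, or 5236 ± 813 against 3895 ± 1353 (SD, n = 3 each, exact permutation p = 0.2, adjusted 0.218). Without B5 the difference, -1341 exon variants over all 6, was -697 (exact permutation p = 0.4). B6 lay within the WT range and B5 was the lowest of all 12 tumours. Processed pseudogenes averaged 3742 ± 551 and 2781 ± 929, unprocessed 959 ± 184 and 670 ± 278, and transcribed 344 ± 58.5 and 280 ± 103. Their exact permutation p-values were 0.2, 0.2 and 0.4. Per 100 flanking variants the WT mean was 8.12 and the KO mean 8.11. The effects of the experiments differed by 684 exon variants (exact permutation p = 0.575 over 400 assignments). Across experiments, gel tumours averaged 3450 ± 475 and host tumours 4565 ± 1239 (n = 6 each, exact permutation p = 0.0736, adjusted 0.171). Without A9 and B5 this difference, -1116 exon variants over all tumours, was -1343 (exact permutation p = 0.0238). Scaling changed it: per 100 flanking variants gel tumours were higher, with 8.42 against 8.11 (exact permutation p = 0.0238, adjusted over 15 tests 0.179). By class, this held for processed pseudogenes (8.465 against 7.937). Unprocessed (7.11 against 7.40) and transcribed pseudogenes (10.1 against 10.4) were lower in gel tumours. Per 1000 coding variants the difference over all pseudogenes was -9.44 (exact permutation p = 0.353). The gel and host tumours differ in experiment as well as in host, and the 2 cannot be told apart.

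**Figure D2:**
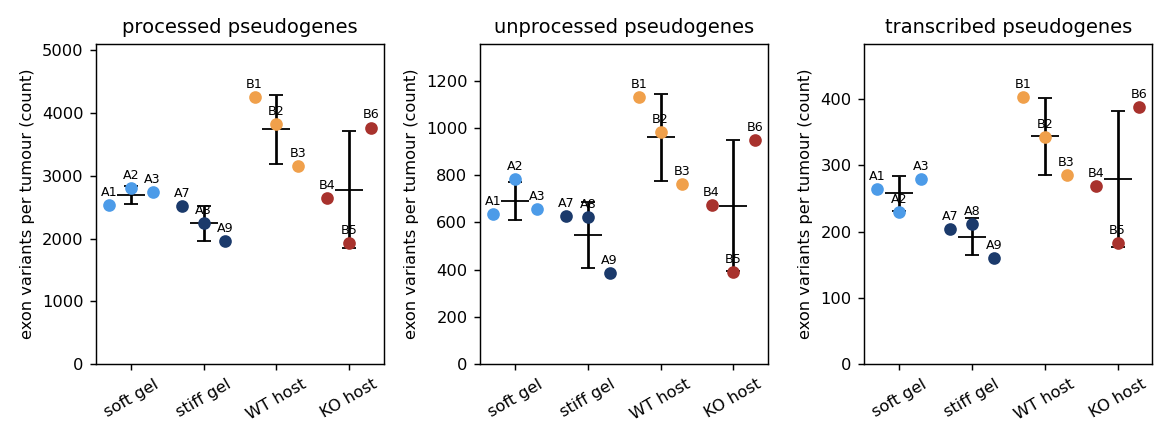
Exon variants per tumour (y axis, count) in processed, unprocessed and transcribed pseudogenes, by group; points are tumours and black bars the mean ± SD of 3. A9 and B5 are the lowest tumours of their groups in every class, and the WT-host tumours range from 3157 to 4251 in processed pseudogenes.

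Tumours A9 and B5 belong to different experiments but were low in many of the same pseudogenes. The labels name a pair of NovaSeq instruments and do not say which tumour was read on which, so the part of the instrument was not tested. This pattern was noticed after the values were seen, the members named for it were chosen then too, and it is given as a description. Of 182 pseudogenes with at least 3 exon variants in each of the other 10 tumours, 54 (29.7%) had a lower count in both A9 and B5 than in any of the 10. The background over all genes of the tables, with coding variants for protein-coding genes and exon variants for the rest, was 203 of 1400 (14.5%). It was 117 of 944 protein-coding genes (12.4%) and 9 of 110 lncRNA genes (8.18%). These members were kept for their counts in the 10 alone, a filter that favours low counts in A9 and B5, and the same filter was used for every set of genes compared here. By class the counts were 33 of 131 processed (25.2%), 15 of 34 unprocessed (44.1%) and 3 of 11 transcribed pseudogenes (27.3%).

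In 31 of the 182 both counts were at most 50% of the lowest of the other 10, and in 12 both were 0. Gm20749, a processed pseudogene, had 0 in A9 and B5 and 13 to 34 in the other 10. Gm3829 had 0 and 0 against 9 to 24, and Gm7912 had 0 and 0 against 6 to 19. AC133103.2 had 2 and 2 against 20 to 24, and Gm15316 had 3 and 3 against 19 to 30. In each of these members A9 and B5 had the same count, but in others that were low in both they differed. Gm12919 had 16 and 20, Cyp21a2-ps 11 and 4 and Gm13141 2 and 0. The flanks showed it too: of 1519 pseudogenes with at least 3 flanking variants in each of the 10, A9 and B5 were both below the 10 in 383 (25.2%). A flanking share over all genes or lncRNA genes is not given here. Under the same rule, the highest count for any other pair of tumours was 104 for flanks. For exon variants of pseudogenes it was 3.

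Copies named after a working gene showed the same split beside unaffected ones. Bhmt-ps1, a processed copy of the betaine-homocysteine methyltransferase gene, had 12 or 13 exon variants in 10 tumours and 1 in both A9 and B5. Rpl7a-ps3, a copy of a ribosomal protein gene, had 6 to 8 in 10 tumours and 0 in both. Taf9-ps, named after a subunit of the general transcription machinery, had 7 to 10 and then 2 in both. Cct3-ps1, a copy of a chaperonin subunit gene, had 16 in A9 and 15 in B5 against 16 to 18 in the rest. Dnmt3l-ps1, named after a cofactor of DNA methyltransferases, had 11 in both against 9 to 12. The flanks of 2 of these copies were low as well. Bhmt-ps1 had 7 flanking variants in A9 and 3 in B5, against 9 to 19 in the other 10. Rpl7a-ps3 had 0 in both, against 4 to 8. The flanks of Taf9-ps were not low, with 4 and 7 against 1 to 15. Coding genes near Bhmt-ps1 and Rpl7a-ps3 did not follow them. Map3k7, a kinase gene next but one to Bhmt-ps1 in RefSeq order, had 144 MODIFIER (mostly intronic and flanking) variants in A9 and 162 in B5, against 138 to 239 in the other 10. Spag1, next but one to Rpl7a-ps3, had 6 in both against 4 to 10. Cyp21a2-ps was different, since the genes on either side of it were low as well. Tnxb, which encodes a tenascin of the extracellular matrix, had 160 MODIFIER variants in A9 and 128 in B5 against 289 to 356, and C4b, a complement gene, had 59 and 65 against 147 to 213. Cyp21a1, the working steroid 21-hydroxylase gene, had 22 and 14 against 14 to 23.

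**Figure D3:**
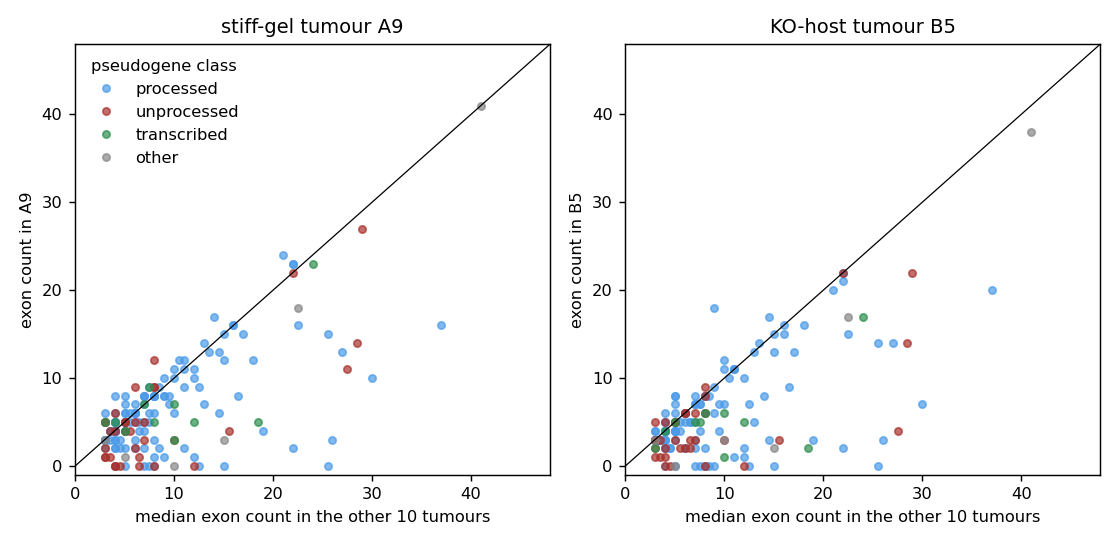
Exon count of each of 182 pseudogenes in tumour A9 (left, y axis) and B5 (right, y axis) against its median in the other 10 tumours (x axis), by class; the line marks equal counts. Many points lie on the line, and a second set lies far below it in both panels, including 12 pseudogenes at 0 in both tumours.

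Sequence likeness could be gauged for few members. RefSeq start windows were present for 279 of the 12041 pseudogenes, and 70 of them shared at least 270 of 300 bases with the window of another gene. Of those 70, 48 were unprocessed, 14 transcribed and 8 processed, and 35 (50.0%) had an exon variant, against 113 of the other 209 (54.1%). Exon variants per 100 flanking variants were 8.61 and 9.54. Of 20 near-identical members with at least 3 flanking variants in each of the 10 tumours, A9 and B5 were both below the 10 in 15 (75.0%). Without a near-identical window it was 10 of 40 (25.0%), and over all pseudogenes 25.2%. The limit of 270 bases was set after the values were seen, the 2 sets differ in class, and these shares are a description.

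The printed pairs had unlike exon counts although their start windows were alike. Those windows lie mostly before the start, and the sequences of the exons were not compared. Gm4454 had 9, 16 and 11 exon variants in soft, 8, 15 and 0 in stiff, 8, 17 and 12 in WT-host and 12, 0 and 17 in KO-host tumours. Its flanking variants fell in the same places, with 4 in A9 and 4 in B5 against 39 to 71 in the other 10. Gm9271, with an identical window, had no exon variant in 7 tumours and 13, 3, 6, 4 and 3 in A3, A7, A8, A9 and B6. Gm21129 had 2 to 31 exon variants in 10 tumours and 0 in A9 and B5, and its flanks held 124 to 161 variants in those 10, 11 in A9 and 0 in B5. Gm6818, whose window differs at 1 base, had exon variants only in A1, B1 and B2, with 7, 2 and 4. Misplacement of reads between these copies was not tested.

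By gene in the count model, pseudogenes gave no call between stiff and soft gels. Of 1331 pseudogenes with at least 3 variants over the 6 tumours, 0 passed an adjusted p of 0.05 (edgeR's quasi-likelihood test, Benjamini-Hochberg over all 10022 genes), as did 0.0% of all genes. An unadjusted p under 0.05 was found in 33 (2.48%), against 2.73% of all genes, and DESeq2 also called 0. Of the 33, 8 were higher and 25 lower in stiff tumours, but without A9 it was 17 higher and 22 lower. Gm12917, a processed pseudogene, had the smallest p: 7, 5 and 9 exon variants in soft and 1, 1 and 1 in stiff tumours, with 7, 8 and 1 in WT and 5, 1 and 1 in KO hosts (log2 difference -2.66 ± 0.31 SE, edgeR adjusted p = 0.894). Gm8428, a processed pseudogene, went the other way. It had 0, 0 and 0 in soft and 11, 19 and 10 in stiff tumours, at least 13.3-fold more with a floor of 3 variants over the soft group (edgeR adjusted p = 0.894). It also had 20, 9 and 1 in WT hosts and 0, 0 and 0 in KO hosts. Gm14057, a transcribed processed pseudogene, had 3, 2 and 1 in soft and 7, 7 and 4 in stiff tumours (log2 difference 1.53 ± 0.42 SE, edgeR adjusted p = 0.894).

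All-or-none members, with an exon variant in 3 of 3 tumours of a group and 0 of 3 of the other, numbered 26 of 3152 pseudogenes with an exon variant in the gel tumours (0.825%). Over all genes of the tables the share was 0.996%, so pseudogenes lay near the background. By class it was 15 of 2386 processed (0.629%), 7 of 493 unprocessed (1.42%) and 4 of 188 transcribed pseudogenes (2.13%). Variants were in soft tumours for 20 of the 26 (0.635% of pseudogenes, 0.729% of all genes) and in stiff tumours for 6 (0.19% and 0.268%). Besides Gm8428, those in stiff tumours had at most 5 variants in any stiff tumour, among them Gm5238, Gm4036, Serpina3l-ps and Olfr696-ps1. Those in soft tumours with the largest means were Gm18806 with 2, 1 and 15, Gm18313 with 5, 3 and 3, Rpl7a-ps2 with 6, 2 and 2, Gm18691 with 4, 3 and 2 and Gm49329 with 2, 3 and 3. Requiring at least 2 exon variants in each of the 3 tumours left 6 of the 26, and the matching share of all genes is not given here.

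Between KO and WT hosts the count model again made no call, although a single pseudogene was at 0 in all 3 KO tumours and high everywhere else. Of 1893 pseudogenes tested, 0 passed an adjusted p of 0.05 (edgeR, over 12279 genes), as did 0.0% of all genes. An unadjusted p under 0.05 was found in 61 (3.22%), against 3.94% of all genes. DESeq2 called 2 of the 1893 pseudogenes, both lower in KO hosts, and 3 of the 12279 genes. Of the 61, 4 were higher and 57 lower in KO hosts, but without B5 it was 14 higher and 36 lower. On simulated counts at this spread edgeR recovered 0% of 16-fold changes, so a count of 0 says little here.

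That pseudogene was Gm5832 (ENSMUSG00000084021), a processed pseudogene. It had 17, 16 and 18 exon variants in soft, 18, 18 and 18 in stiff, 18, 14 and 18 in WT-host and 0, 0 and 0 in KO-host tumours. The 9 tumours outside the KO hosts lay between 14 and 18, and the KO tumours did not come near them. With a floor of 3 variants over the KO group, WT hosts had at least 16.7-fold more (edgeR adjusted p = 0.931 in the 6 tumours). With all 12 tumours in the fit, 1 of 1893 pseudogenes was called between KO and WT hosts, the only call among 12279 genes. Among all genes, 2 were at 0 in the 3 KO tumours and had at least 2 coding or exon variants in each of the other 9. In the fit of gel against host tumours, Gm5832 was the only call, 1 of 2420 pseudogenes (0.0413%) and of 15907 genes (0.00629%; edgeR log2 difference 3.60 ± 0.16 SE, adjusted p = 0.000884). DESeq2 with equal size factors made no call of a pseudogene there. The edgeR value rests on the KO tumours, since WT-host tumours had 14 to 18 and gel tumours 16 to 18. The difference between its effects in the 2 experiments was also the only one called (edgeR log2 difference 7.15 ± 0.33 SE, adjusted p = 0.00096). An unadjusted p under 0.05 for such a difference was found in 38 pseudogenes (1.57%), against 2.37% of all genes. Both fitted values depend on how the zeros are treated.

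Genes around Gm5832 had few variants in the KO tumours too. Usp40, the coding gene before it in RefSeq order, encodes a ubiquitin-specific peptidase. It had 1, 1 and 1 MODIFIER variants in B4, B5 and B6 and 60 to 198 in the other 9 tumours. Dgkd, which encodes a diacylglycerol kinase, had 3, 10 and 4 against 33 to 83. Inpp5d, an inositol phosphatase gene, had 3, 7 and 8 against 21 to 69. Gm15375, the pseudogene after Gm5832, had 0, 0 and 1 against 14 to 22, and Hjurp, a centromere protein gene further on, had 0, 1 and 1 against 19 to 44. Neighbours share some variants, since a variant in the exon of a gene is also upstream, downstream or intronic to the next.

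Among the 30 listed genes before Gm5832, 13 had at least 3 MODIFIER variants in each of the 9 tumours, and in 12 of these every KO tumour was below all 9. Among the 30 after it the count was 2 of 17, and the 15 without the pattern were 9 overlapping Ugt1a genes and 6 genes among or just after them. Ugt1a10 had 1145, 1017 and 1344 in KO-host tumours and 1049 to 1698 in the other 9. Over all genes with at least 3 in each of the 9 tumours, it was 67 of 13611 (0.492%). The pattern went on beyond the 30 genes before Gm5832. Psmd1, 50 places before it, had 5, 3 and 4 in KO-host tumours and 24 to 64 in the other 9. At 55 places, 4933407L21Rik had 2, 0 and 2 against 3 to 16. Cab39 and Spata3, in the same stretch, did not show it. From 31 to 60 places after Gm5832 it was not seen. The host experiment thus differed at Gm5832 as part of a run of neighbouring genes. The part of an inherited difference in this result was not tested.

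**Figure D4:**
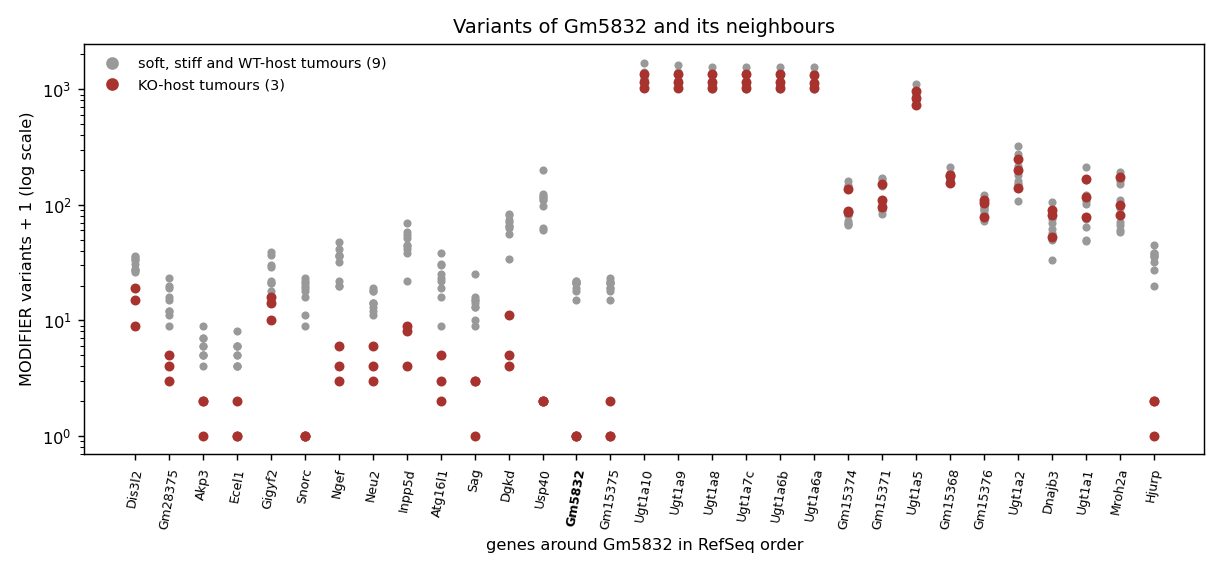
MODIFIER variants plus 1 (y axis, log scale) of Gm5832 and of genes up to 30 places before or after it in RefSeq order (x axis), for genes with at least 3 in each of the 9 tumours outside the KO hosts; each point is a tumour. KO-host tumours lie below all others in 12 of 13 genes before Gm5832, at Gm5832 itself, and at Gm15375 and Hjurp after it, but not at the 15 other genes after it.

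All-or-none members numbered 46 of 3703 pseudogenes with an exon variant in the host tumours (1.24%), against 1.39% of all genes. By class it was 35 of 2845 processed (1.23%), 6 of 546 unprocessed (1.1%) and 3 of 212 transcribed pseudogenes (1.42%). Variants were in WT hosts for 42 (1.13% of pseudogenes, 1.08% of all genes) and in KO hosts for 4 (0.108% and 0.31%). The 4 were Gm48386, Gm48418, Gm50453 and Gm7984, with 1 or 2 variants in each KO tumour. Of the 42, 15 had no exon variant in the 6 gel tumours either, as had 55 of the 233 such genes overall. The soft, stiff and KO groups each had 1 pseudogene with variants in its 3 tumours and in no other, against 11, 12 and 15 of all genes. Gm12021 had 5, 6 and 6 in WT hosts and 0 in the other 9 tumours, and Gm16569 had 3, 4 and 3 and 0 in the other 9. Gm9251 had 9, 18 and 15 in WT hosts, 2 in A2 and 0 in the rest, at least 14.0-fold more than in KO hosts. Gm49137 had 12, 9 and 7 in WT hosts, 4 in A2 and 0 in the rest. Each of these members held several variants in WT hosts and almost none elsewhere. They were picked for a difference between WT and KO hosts, so that part of the pattern follows from the choice. WT hosts also had the highest mean exon sum over all pseudogenes, 5236 against 3121 to 3895 in the other groups. A gene near each of 2 of these members did not share the pattern. Vipr2, a neuropeptide receptor gene next but one after Gm9251, had 164, 143 and 111 MODIFIER variants in WT and 111, 74 and 143 in KO hosts. Meis1, a homeobox gene after Gm12021, had 52, 53 and 35 in WT and 27, 29 and 44 in KO hosts.

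Across experiments, an unadjusted p under 0.05 was found in 112 of 2420 pseudogenes (4.63%), against 7.12% of all genes (edgeR). Among these, 8 had higher and 104 lower counts in gel tumours. Without A9 and B5 it was 95 of 2269 pseudogenes, 9 higher and 86 lower, and 895 of 14718 genes. Gm40989 had 5, 4, 1, 6, 1 and 1 exon variants in the gel tumours and 19, 17, 9, 14, 7 and 18 in the host tumours (log2 difference -2.18 ± 0.46 SE, edgeR adjusted p = 0.516). Gm35183 had 0 in the 6 gel tumours and 3, 3, 3, 4, 3 and 1 in the host tumours (edgeR adjusted p = 0.398). Csnk2a3, labelled a processed pseudogene here and named after a kinase subunit, had 7 to 11 in gel and 7 to 23 in host tumours (edgeR adjusted p = 0.548).

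The pseudogenes of p53 and Gpx4, the genes that the study manipulated, were nearly free of variants. Trp53-ps had 0 exon variants in all 12 tumours and 1 flanking variant in A9 and in B4. Gpx4-ps1 had 1 exon variant, in B1, and Gpx4-ps2 had 0 in all 12 and 3 flanking variants in B6. A count of 0 does not show coverage, since the tables list no depth.

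Copies were then set beside the genes they are named after. For 646 pseudogenes the name gave a protein-coding gene, 306 different genes in all. At least 1 exon variant was found in 258 of the copies and at least 1 coding variant in the named gene of 352. The named gene had a coding variant for 57.4% of copies with an exon variant and 52.6% of copies without. The copy had the higher mean in 170 pairs and the named gene in 284. For 8 of the 10 copies with most variants the gene itself was nearly free of them. Bhmt, Tpt1, Taf9 and Rpl7a had 0 coding variants in all 12 tumours, Esd was listed in no table, and Cct3 and Dnmt3l at most 1. Uqcrh, a subunit gene of the respiratory chain, had at most 2, while Uqcrh-ps2 had 4 to 8.

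Smarce1, a chromatin remodelling gene, had 1 to 6 coding variants and Smarce1-ps1 4 to 13 exon variants. Ifi203, an interferon-inducible gene, had 4 to 25 coding variants against 0 to 13 in its unprocessed copy Ifi203-ps. Of the 16 copies with a mean of at least 3, 15 had a higher mean than the gene, unlike the 646 pairs as a whole. Coding and exon counts are not per base, and selection by the copies' own counts favours this direction.

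**Figure D5:**
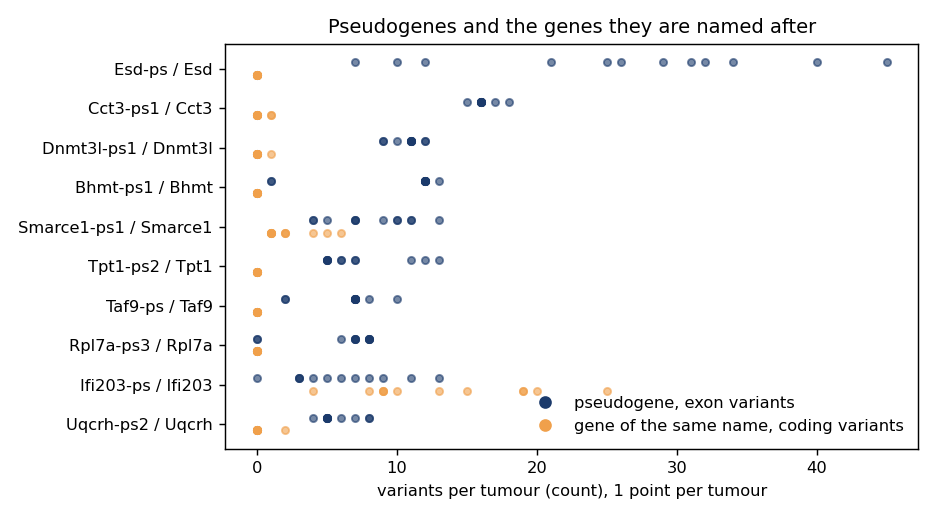
Exon variants of the 10 densest pseudogenes named after a protein-coding gene and coding variants of that gene (x axis, count), with 1 point per tumour. The genes lie at or near 0 in 8 of the 10 pairs, while Smarce1 reaches 6 and Ifi203 reaches 25.

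Families named by symbol differed in level and in steadiness. Copies of housekeeping genes had an exon variant in 139 of 360 members (38.6%) and members of multigene families in 295 of 664 (44.4%), against 39.8% of all pseudogenes. Ribosomal protein copies, 274 members of which 97 had an exon variant, summed to 50, 59 and 54 in soft, 43, 40 and 31 in stiff, 89, 71 and 68 in WT-host and 28, 21 and 69 in KO-host tumours. Soft and stiff tumours did not overlap, while B6 lay among the WT-host tumours. Between KO and WT hosts, 44 members had a lower mean in KO hosts, 15 a higher one and 215 the same. Those 215 include the members with no exon variant in any tumour. Over all 3703 pseudogenes with an exon variant there, 2044 were lower and 1202 higher. Glycolysis enzyme copies had 8.33 ± 1.53 in soft and 14.3 ± 4.73 in stiff tumours, and mitochondrial and redox copies 7.67 ± 1.15 and 12.3 ± 2.31 (n = 3 each, not tested). The glycolysis sums overlapped, with 8, 7 and 10 in soft and 18, 16 and 9 in stiff tumours. Members with a higher stiff mean were 4 of 10 and 5 of 27. Each other family had a level or lower mean in stiff tumours, and pseudogenes as a whole were lower there.

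Receptor pseudogenes were the largest multigene families. Olfactory receptor pseudogenes, 115 of 258 with an exon variant, averaged 84.7 ± 15.3 in soft, 84.7 ± 5.51 in stiff, 122 ± 24.4 in WT-host and 113 ± 36.9 in KO-host tumours. Their densest member, Olfr1409-ps1, had 8 in 11 tumours and 9 in A9. Type 2 vomeronasal receptor pseudogenes, copies of pheromone receptor genes, had an exon variant in 68 of 112 members. They summed to 24 in A9 and 17 in B5, and to between 61 and 161 in the other 10 tumours. Vmn2r46 had 4 in A9, 3 in B5 and 5 to 20 in the rest. Type 1 vomeronasal receptor pseudogenes had an exon variant in 23 of 107 members and 5 to 27 in all per tumour. Immune receptor family pseudogenes summed to 20 in A9 and 21 in B5 and to between 28 and 59 elsewhere. H2-Pa, the densest of the H2 histocompatibility pseudogenes by mean, had at most 2. As a family these summed to 10 in B6 and to between 0 and 3 in every other tumour.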

How the data were processed

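Exome libraries (SureSelectXT mouse kit) were read as 150 bp pairs to a stated 6 Gb and more than 50x, per the labels' protocols. BWA 2.2.1, SAMtools 1.19.2, GATK and GRCm39 are named in the submitters' processing notes. The authors deposited 12 snpEff tables of variant counts per transcript, per the file headers; 2 tails were not analysed here. Per gene the maximum over transcripts was taken and an unlisted gene set to 0. Protein-coding genes were counted by HIGH, MODERATE and LOW impact, other genes by exon variants. Blank-biotype rows whose symbol is a RefSeq lncRNA were the lncRNA genes.

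Group sums went through exact permutation tests, two-sided (20 or 924 assignments), and ratios through sign flips over 12 tumours (4096). Genes with a sum of at least 3 were tested with edgeR 4.0.16 (quasi-likelihood, equal library sizes, Benjamini-Hochberg, threshold 0.05); DESeq2 1.42.0, TMM scaling, other filters and left-out tumours were alternatives. The SE is the absolute log2 difference over the square root of F, an approximation. On simulated counts with means of at least 10, edgeR recovered 44% of 8-fold changes for stiff against soft gels (10283 genes), 0% for KO against WT hosts (12359 genes) and 100% for gel against host tumours (16109 genes). Start windows were compared with BLAST 2.17.0. p-values measure only the spread between these tumours. The members and lists were chosen with earlier results of these data known; the comparison of transcribed with processed pseudogenes and the descriptions of A9 and B5 and of start windows were added after the values were seen. Named were the densest members by class, family and gene of origin, those with the smallest edgeR p or largest all-or-none difference, the widest ranges, and the p53 and Gpx4 copies, of which a selection is printed. Depth per tumour is unknown.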

Additional observations from a re-analysis of the deposited data

Results flagged for a closer look

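The effect at Gm5832 differed between the experiments, by a log2 difference of 7.15 between stiff-minus-soft and KO-minus-WT (edgeR adjusted p = 0.00096 over 15907 genes). It had 16 to 18 exon variants in the 6 gel tumours, 18, 14 and 18 in WT hosts and 0 in the 3 KO hosts, and the KO tumours were also low in 12 of 13 genes before it. The part of an inherited difference was not tested.

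HIGH-impact variants, which in these rows come from splice sites, lie outside the exon and flanking counts. They summed to 168 over the 12 tumours, from 6 in A9 and B5 to 20 in B1 and B6, and MODERATE-impact variants to 0.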

How the results depend on the processing

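The sums of exon variants kept their direction under all alternatives but scaling to flanking variants, which gave 0.0187 per 100 for stiff minus soft and 0.308 for gel minus host (exact permutation p = 0.0238). Without A9 and B5, gel minus host was -1343 (exact permutation p = 0.0238). Leaving out each tumour in turn gave -847 to -412 for stiff minus soft, -2046 to -697 for KO minus WT and -1507 to -829 for gel minus host (exact permutation p from 0.00649 to 0.141, the lowest without B5). Pseudogenes called for KO minus WT were 2 of 1893 with DESeq2 under either scaling, beside 3 of all 12279 genes. With all 12 tumours in the fit it was 1 pseudogene, the only call among all genes. For gel minus host the count was 0 with DESeq2 at equal size factors, beside 2 of all 15907 genes. An unadjusted DESeq2 p under 0.05 was found there in 38 of 2420 pseudogenes and 283 of the 15907 genes. Leaving out each tumour gave 0, 0 and 1 calls in the 3 comparisons. All-or-none pseudogenes numbered 194 (stiff minus soft) and 156 (KO minus WT) with flanking variants included, and 6 and 12 with at least 2 exon variants required. Leaving out a tumour, which eases the rule, gave 54 to 102 and 96 to 141. Shares over all genes are not given for these alternatives, so the counts cannot be set against a background. The processed minus unprocessed ratio stayed between 0.837 and 1.03 and pseudogenes minus lncRNA genes between -6.38 and -6.28 with each tumour left out. Other settings kept the signs but moved the sizes. Pseudogenes minus lncRNA genes was -3.91 with transcripts summed, -13.9 per 100 upstream and -11.5 per 100 downstream variants. Processed minus unprocessed was 0.964, 2.29 and 1.45 in these settings, and 1.69 without multigene families. No paired analysis was possible because the groups compared share no replicate that the labels pair. Depth is unknown, so a 0 may be an uncovered exon.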
